A study of Homo sapiens with 10 samples.

Results

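Long noncoding RNAs (lncRNAs) are long transcripts that are spliced and often polyadenylated like mRNAs but are not known to be translated into a protein of their own. Some act as RNA: NEAT1 is the scaffold of nuclear paraspeckles, MALAT1 sits in nuclear speckles, and NORAD holds PUMILIO proteins in the cytoplasm. Others are hosts whose introns are cut out and trimmed to small nucleolar RNAs (snoRNAs), the guides for chemical modification of ribosomal RNA, and the spliced host remains as a by-product. Still others are read from the opposite strand of a protein-coding gene or start head-to-head with one.

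The 200 lncRNAs described here were taken from 14763 genes with the biotype lncRNA among 46427 genes of the expression table, as the 200 with the highest mean FPKM over its 10 libraries. FPKM is fragments per kilobase of transcript and of all mapped fragments, so levels of different genes can be compared on it. The members were thus chosen by their measured FPKM, and these means are a description. The last members inside were MIR1915HG, LOC107986991 and LOC102725231, with mean FPKM of 2.99, 2.98 and 2.98. The first genes outside were LOC646762, LOC102723663 and LOC105376486, with 2.92, 2.9 and 2.9.

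The libraries were of poly(A) RNA from 2 established human lung cancer cell lines, H460 and A549. There were 3 libraries of parental H460 cells in 2D culture and 4 of H460 cells that survived a drug, which were 1 CR library after cisplatin (4 µM), 2 PR libraries after paclitaxel (5 nM) and 1 DR library after doxorubicin (0.5 µM). According to the methods of the study, each drug was given for 3 days and followed by 3 days in fresh medium before the survivors were plated again. TS libraries came from cells passaged at least 3 times as floating tumor spheres in serum-free medium with B27, bFGF and EGF. There was 1 TS library of H460, 1 of A549 and 1 A549 library in 2D culture. The labels call both TS libraries CTC. CR A549 cells were not analysed here. Groups of 1 library have no replicate error of their own, and the labels do not say whether libraries of 1 group came from separate cultures, so p-values measure the spread between these libraries, which may be technical.

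Library totals were 59499787 to 89541774 counted reads. The keratins KRT8 and KRT18 had FPKM of 283 to 3870 and 190 to 3230, and VIM was between 519 and 964. EPCAM did not exceed 1.04, and CDH1 was between 0 and 0.0266 in H460 and 9.29 and 11.9 in A549. The lung markers NKX2-1, SFTPC, SFTPB and NAPSA were at 0.427 or less in all libraries, SFTPB at 0 in all, and PTPRC of immune and PECAM1 and CDH5 of endothelial cells at 0.157 or less. CD68, a lysosomal protein used as a macrophage marker, was at 15 to 16.9 in the parental libraries, 57.9 in CR, 30.7 and 44.2 in PR, 46.5 in DR and 21.2 in H460 TS, and at 19.6 and 69.8 in A549 2D and TS. KRT19 was at 138 to 738 in H460 and at 3.57 and 68.3 in A549. The fibroblast marker LUM was at 26.6 in H460 TS, and COL1A1 was at 6.51 and 6.26 in the PR libraries, each above every other library. The fibroblast markers did not go together: in H460 TS, COL1A1 was at 0.051, its lowest, and DCN at 0.0761. DCN did not exceed 0.319 in any library. The part of all these markers in the results was not tested. In such bulk libraries fewer cells of a kind and less RNA per cell cannot be told apart.

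The members formed a short list of very abundant RNAs and a long tail. Together they reached a summed FPKM of 3251 to 4093 in the parental libraries, 5273 in CR, 3969 and 4541 in PR, 3941 in DR and 4037 in H460 TS. In A549 the sum was 1893 in 2D and 2080 in TS, below every H460 library. They held 62.9% to 80.2% of the FPKM of all lncRNAs and 0.438% to 1.16% of that of all genes, and the 10 members of highest mean held 33.6% to 66.2% of the members' sum.

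The snoRNA hosts led the list. By name, 26 members were snoRNA hosts, 45 were antisense to a named gene, 10 were divergent transcripts, 34 carried a LINC name, 38 a LOC name without a known function, 9 were readthrough transcripts, 3 were hosts of a miRNA and 35 had other names. Of the 15 most abundant members 11 were snoRNA hosts, with SNHG29 at a mean of 509 FPKM (chr17:16438987-16470648, plus strand). GAS5, a host of many snoRNAs named for its rise in growth-arrested cells (chr1:173863901-173869045, minus strand), was second. Positions are those of RefSeq on GRCh38.p14, which has an entry for 191 members and now lists 2 of them, TUG1 and ERVK3-1, as protein-coding.

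The most abundant member was not the same in all libraries. SNHG29 led in the 3 parental libraries, H460 TS and A549 2D. GAS5 led in CR, DR and PR replicate 2, NEAT1 in PR replicate 1, and the imprinted RNA H19 in A549 TS. When each of the 7 groups was ranked by itself, 81 of the 200 members were among the 200 highest lncRNAs of all 7 groups. A549 2D shared 129 members with the list and A549 TS 133, against 163 to 171 for the groups of H460.

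**Figure D1:**
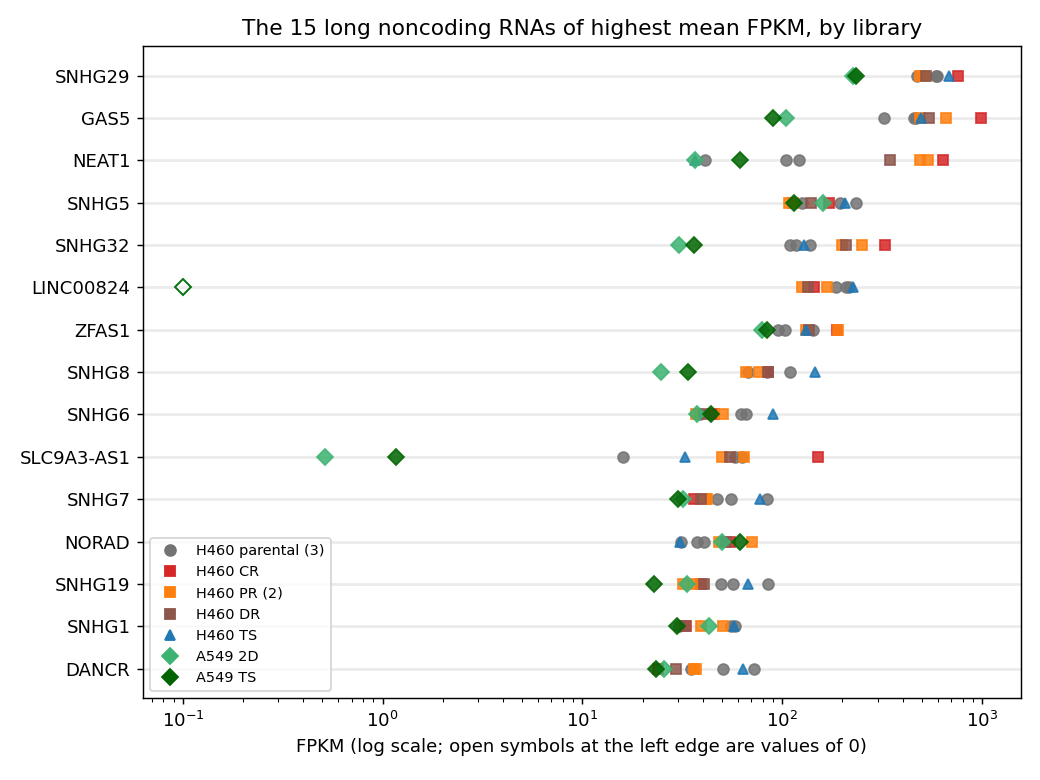
FPKM (log scale) of the 15 members with the highest mean, with 1 symbol per library: grey circles for the 3 parental libraries, squares for the drug-resistant libraries, triangles for H460 TS and diamonds for A549. LINC00824 is drawn at the left edge in A549, where both values are 0, and the 4 squares of NEAT1 lie to the right of all other libraries.

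Levels varied more once A549 was counted in. The highest of the 10 libraries was more than 10-fold above the lowest, or the lowest was at 0, for 52 members. Over the 8 H460 libraries this held for 11 members, and 58 members stayed within 2-fold there. The steadiest members over all 10 libraries were WAC-AS1, LOC107987072, SNHG14, EIF3J-DT and TUG1, known for a role in the retina, whose highest library was 1.58, 1.6, 1.62, 1.63 and 1.65 times the lowest.

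Higher in drug-resistant H460 cells were, among others, NEAT1 and MALAT1 of nuclear bodies and the p53-linked TP53TG1, LINC-PINT and PURPL, while OLMALINC and 4 snoRNA hosts were lower and 2 hosts higher. The 4 drug-resistant libraries were compared with the 3 parental libraries on the counts with edgeR, so the spread includes differences between drugs. Of 199 members tested 37 were higher and 18 were lower in the drug-resistant cells (adjusted p under 0.05). That is 27.6% of the members, whereas 33.8% of all genes tested passed (18.5% higher and 15.3% lower), and the median log2 fold change was 0.06 both for the members and for all genes. H19 had too few reads in these libraries to be tested. Scaled by the upper quartile, which moved the median of all genes to 0.23, 51 members were higher and 12 lower, while the split of all genes went from 54.6% to 67.4% higher. Without parental replicate 1 the calls were 36, of which 22 were higher and 14 lower. CR, DR, PR replicate 2 and parental replicate 2 share a form of library name, and with that form as a term 27 members were higher and 16 lower. The shares of all genes without parental replicate 1 and with that term are not given, so these counts cannot be told from a change over all genes. The higher members changed by 0.66 to 4.21 on the log2 scale and the lower ones by -0.52 to -1.88.

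The choice of members bore on the split between higher and lower. Drug-resistant libraries made up 4 of the 10 that were averaged, and the mean favours RNAs that are high in them. Ranked by the parental libraries alone, which favours the opposite, 171 members stayed in the list. Of the whole list of 200 by that ranking 21 were higher and 26 lower. Of the 171 that stayed 21 were higher and 18 lower. With parental and drug-resistant means given equal weight the numbers were 36 and 17. Among the 2450 other lncRNAs tested, 601 were higher and 58 lower, which is 26.9% called against 33.8% of all genes. The filter on low counts keeps genes with enough reads in the drug-resistant libraries alone. How far this set the split was not tested.

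In FPKM, 53 members lay above the parental range in all 4 drug-resistant libraries and 19 lay below it in all 4. Over all expressed genes 21.8% lay above and 16.8% below. Of the 37 higher members 35 did not overlap between the groups, and of the 18 lower members 13 did not. These members were picked by a test on the same libraries, so their separation is no further support. The share among all genes that passed was not computed.

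**Figure D2:**
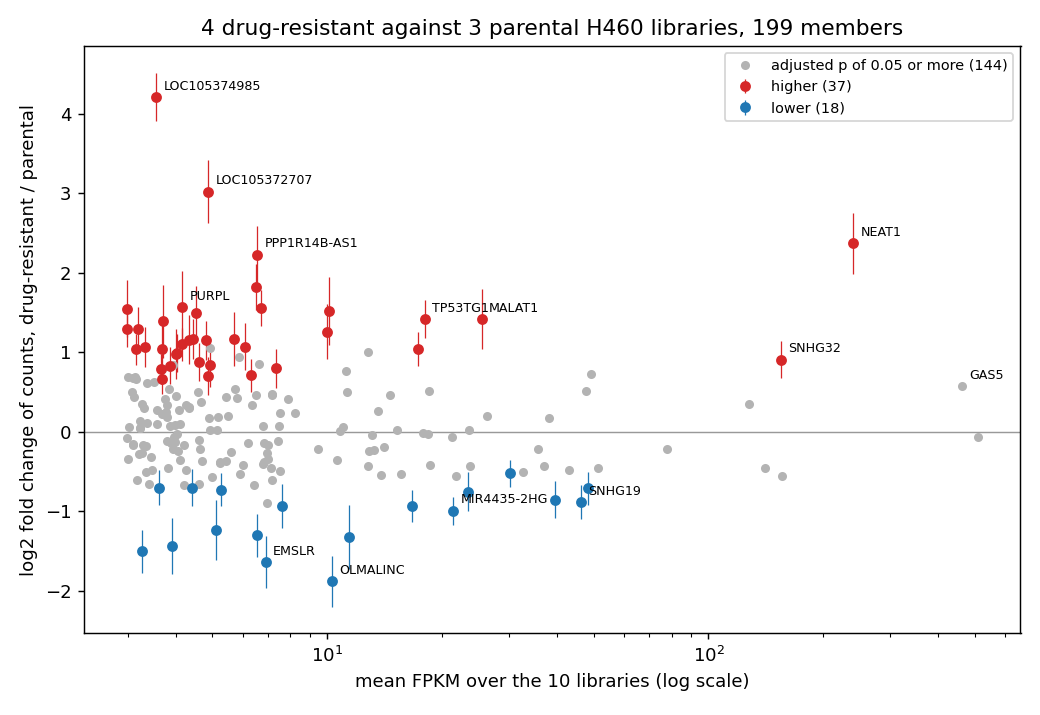
Each point is 1 of the 199 members tested, with its mean FPKM over the 10 libraries (log scale) on the x axis and the log2 fold change of counts between 4 drug-resistant and 3 parental libraries on the y axis, with bars of 1 SE for the members that passed. Red points (37) were higher and blue points (18) lower, and NEAT1 is the one member above 200 FPKM that passed.

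NEAT1 is transcribed from chr11:65422798-65445540, and its long form builds paraspeckles. Its FPKM was 40.9, 122 and 104 in the parental libraries, 635 in CR, 534 and 490 in PR and 345 in DR. All 4 drug-resistant libraries were far above the parental range. The means were 501 ± 120 (SD, n = 4) and 88.9 ± 42.5 (SD, n = 3), and the log2 fold change was 2.37 (SE 0.388, adjusted p = 0.00159). In H460 TS it was 36.5, below all 3 parental libraries, and in A549 it was 36.4 in 2D and 61.6 in TS. MALAT1, its neighbour at chr11:65497738-65506516, was at 6.21, 14.2 and 22.6 in the parental libraries, 37 in CR, 52.4 and 43.2 in PR and 37 in DR. Again the groups did not overlap, and the log2 fold change was 1.42 (SE 0.376, adjusted p = 0.0157), with an adjusted p of 0.0677 without parental replicate 2. Only RNA caught by its poly(A) stretch was sequenced, and the mature MALAT1 and the long form of NEAT1 end without one.

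Of 12 lncRNAs listed as induced by p53 or DNA damage, 6 were members. Of these, NEAT1, TP53TG1, LINC-PINT and PURPL were higher in drug-resistant cells (18.5% of all genes were), none was lower, and the median log2 fold change was 1.23 against 0.06 for all genes. LINC-PINT and PURPL were not among the 200 highest lncRNAs by the parental mean, so they are members through libraries in which they are high, and their count and this median are partly set by the ranking. Of the 4 that were, 2 were higher and the median was 0.97. TP53TG1, a p53 target (chr7:87325347-87345492, minus strand), was at 8.39, 14.4 and 9.11 FPKM in the parental libraries, 29.7 in CR, 22.5 and 34.4 in PR and 34.8 in DR. All 4 drug-resistant values exceeded the parental ones, with a log2 fold change of 1.42 (SE 0.243, adjusted p = 0.00202). LINC-PINT, a p53-induced RNA, was between 1.66 and 2.55 in the parental and between 4.58 and 5.83 in the drug-resistant libraries (log2 fold change 1.04, SE 0.197, adjusted p = 0.0034). NORAD, named for its activation by DNA damage, was at 31, 37.3 and 40.4 in the parental libraries and 48.3 to 70.4 in the drug-resistant libraries (log2 fold change 0.52, adjusted p = 0.0766). PVT1, the neighbour of MYC, had a log2 fold change of -0.42 and an adjusted p of 0.114, and passed as lower without parental replicate 2.

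PURPL, which restrains p53 and is itself switched on by it, was high with paclitaxel and near the parental range with the other drugs. Its FPKM was 1.4, 2.3 and 2.43 in the parental libraries and 10.1 and 10.8 in PR, but 2.94 in CR and 3.36 in DR. Over all 4 drug-resistant libraries its log2 fold change was 1.57 (SE 0.457, adjusted p = 0.0242), and the call was lost without either PR library or without parental replicate 1 or 2 (adjusted p 0.0593 to 0.0956). In the PR libraries alone it was 2.11 (SE 0.331, adjusted p = 0.00353). The difference between paclitaxel and the other drugs was not tested. Its promoter is shown because it held the consensus p53 response element, a pair of 10-base half-sites side by side. In RefSeq's promoter windows on GRCh38.p14, from 250 bases before to 50 bases after the start, the element is in 1 of 185 windows of members and in 0.0171% of all 35116 windows. The window is chr5:27472042-27472341 on the plus strand, and the capitals mark the element, which begins 127 bases before the start.

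PURPL promoter: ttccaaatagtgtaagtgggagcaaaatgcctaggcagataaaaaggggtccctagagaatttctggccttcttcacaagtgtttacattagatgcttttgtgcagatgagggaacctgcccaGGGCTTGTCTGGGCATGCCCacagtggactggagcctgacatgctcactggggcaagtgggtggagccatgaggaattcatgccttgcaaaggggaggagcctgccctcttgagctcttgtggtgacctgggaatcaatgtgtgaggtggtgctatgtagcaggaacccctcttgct

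The listed nuclear and chromatin-associated lncRNAs had 8 members, of which NEAT1, MALAT1 and LINC-PINT were higher and none was lower, where 18.5% and 15.3% of all genes were. The median log2 fold change was 0.44, and 0.02 over the 7 without LINC-PINT, which are those among the 200 highest by the parental mean. OIP5-AS1 and CYTOR had log2 fold changes of -0.46 and -0.56 (adjusted p 0.126 and 0.0963). TUG1 was between 14.5 and 16.3 in the parental and between 15.1 and 20.3 in the drug-resistant libraries (log2 fold change 0.02, SE 0.176). FENDRR, known from heart and lung development, was at 2.71, 6.61 and 7.35 in the parental libraries and 9.79 to 12.7 in the drug-resistant ones, with an adjusted p of 0.0515.

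The pair of largest rises was in RNAs without a known function, and NEAT1 had the third. LOC105374985, LOC105372707 and PPP1R14B-AS1 were no longer members when lncRNAs were ranked by the parental mean. They are members through libraries in which they are high, so their rises are partly set by the ranking. LOC105374985 was at 0.434, 0.228 and 0.334 FPKM in the parental libraries, 7.5 in CR, 5.57 and 7.08 in PR and 6.95 in DR. Its log2 fold change was 4.21 (SE 0.307, adjusted p = 9.42e-05), and it was 0.355 in H460 TS but 6.2 in A549 TS. LOC105372707 was between 0.766 and 1.54 in the parental libraries and at 10.8, 10.4, 11.7 and 5.01 in CR, both PR libraries and DR (log2 fold change 3.02, SE 0.395). The antisense RNA PPP1R14B-AS1 rose from 1.57 to 2.34 in the parental libraries to 5.85 to 15.3 (log2 fold change 2.23, SE 0.355, adjusted p = 0.00139). The gene on the opposite strand, PPP1R14B, had a log2 fold change of -0.44 (adjusted p = 0.134).

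OLMALINC, named for a role in oligodendrocyte maturation, fell the most. It was at 7.45, 16.2 and 19.7 FPKM in the parental libraries, 4.33 in CR, 4.52 and 5.21 in PR and 3.12 in DR. The groups did not overlap, and the log2 fold change was -1.88 (SE 0.316, adjusted p = 0.0018). In H460 TS it was 32.5, the highest of all libraries. EMSLR, named for stabilizing the mRNA of E2F1, was at 15.5, 12.7 and 5.32 in the parental libraries and 2.79, 5.31, 3.58 and 3.76 in CR, both PR libraries and DR. The lowest parental and the highest drug-resistant value were nearly equal, and the log2 fold change was -1.64 (SE 0.327, adjusted p = 0.00434). MIR4435-2HG, host of a miRNA, fell in counts by 0.99 on the log2 scale (adjusted p = 0.0025), while its FPKM overlapped, at 19.6 to 37.5 and 17 to 24.2, and limma on log2(FPKM + 1) did not call it (adjusted p = 0.254). Among 199 members it was the one for which the log2 change in counts and in mean FPKM differed by more than 0.5.

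**Figure D3:**
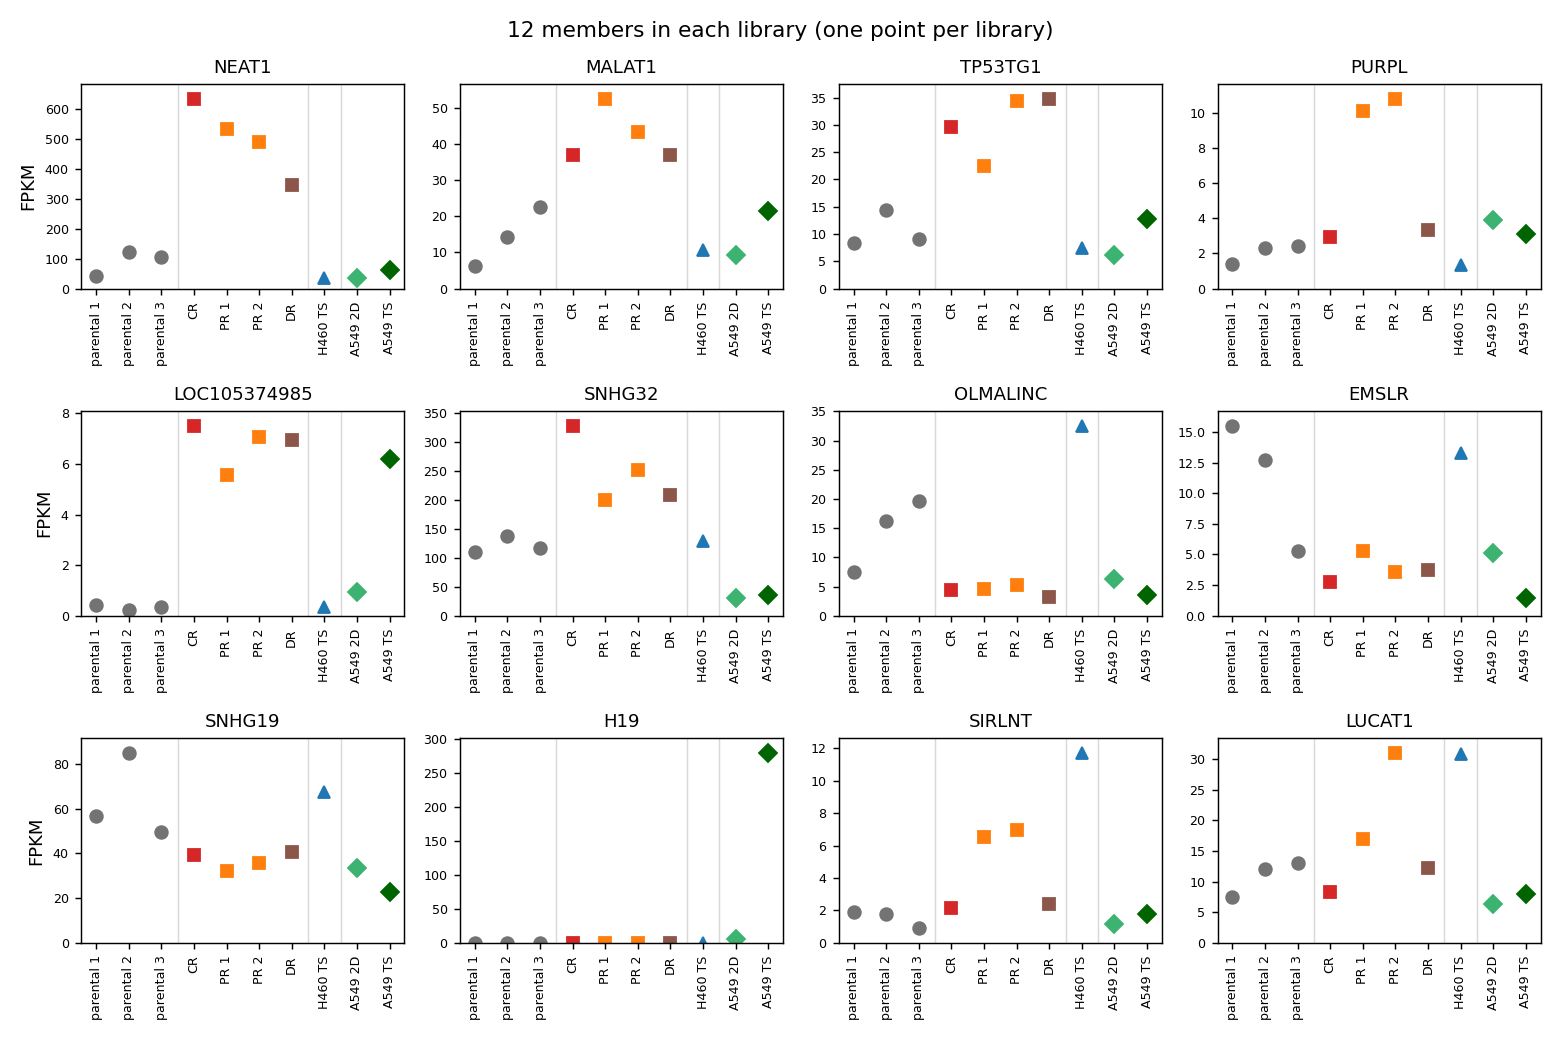
FPKM (linear axes from 0) of 12 members, 1 point per library in the order parental, CR, PR, DR, H460 TS, A549 2D and A549 TS. NEAT1, MALAT1 and TP53TG1 are higher in all 4 drug-resistant libraries, OLMALINC and SIRLNT are highest in H460 TS, and H19 reaches 279 in A549 TS.

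The snoRNA hosts did not move together. Of 26 members 2 were higher and 4 lower in drug-resistant cells, 20 did not pass, and the median log2 fold change was -0.29 against 0.06 for all genes, or -0.11 against 0.23 when scaled by the upper quartile. SNHG32 (chr6:31834916-31839761, plus strand) was at 110, 138 and 117 FPKM in the parental libraries, 327 in CR, 199 and 251 in PR and 208 in DR. It was higher in every drug-resistant library, by 0.91 on the log2 scale (SE 0.232, adjusted p = 0.0136), though the adjusted p was 0.0547 without parental replicate 1. The other higher host, SNHG11, had a log2 fold change of 0.7 (adjusted p = 0.0432) and was lost in 6 of the 7 fits that left out 1 library, with adjusted p of 0.055 to 0.124 there. SNHG19 was at 56.5, 84.8 and 49.4 in the parental libraries and fell to 39.2 in CR, 31.9 and 35.6 in PR and 40.6 in DR (log2 fold change -0.88, SE 0.209, adjusted p = 0.00991). SNHG7, DANCR and SNHG17 fell by 0.71, 0.85 and 0.52 on the log2 scale (adjusted p 0.0231, 0.0184 and 0.0372). Each of these 3 calls was lost without parental replicate 1, where the adjusted p was 0.0702, 0.0707 and 0.0975, and with the form of library name as a term (0.07, 0.0538 and 0.0776). That term also ended the calls of SNHG11 (0.0988), VPS9D1-AS1 (0.145), ZBED5-AS1 (0.119) and SIRLNT (0.0546). Without parental replicate 3 the lower hosts were 11, and the share of all genes in that fit is not given.

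GAS5 was at 323, 470 and 456 FPKM in the parental libraries, 984 in CR, 489 and 662 in PR and 542 in DR. The drug-resistant values all lay above the parental ones, but the log2 fold change of 0.58 (SE 0.293) did not pass (adjusted p = 0.146). SNHG29 was between 474 and 598 in the parental and between 487 and 756 in the drug-resistant libraries, with the highest value in CR.

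Starts are shown for the 6 hosts that passed the test, and for ZFAS1 and SNHG5, which did not and were picked for the feature described next. A C followed by a run of C and T at the first base of a transcript is the start of 5′ TOP mRNAs, among them those of ribosomal proteins. A C within 5 bases of the RefSeq start, followed by at least 4 further C or T on the transcript's strand, was found at 11 of the 22 snoRNA hosts with a promoter entry. It was found at 18.4% of 163 starts of other members, 69.4% of 85 starts of ribosomal protein genes and 21.1% of all starts. The windows run from 10 bases before to 20 bases after the start on GRCh38.p14, with the run in capitals. Of the hosts higher in drug-resistant cells SNHG32 had the run and SNHG11 did not, and all 4 lower hosts (SNHG19, SNHG7, DANCR and SNHG17) had it.

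SNHG32, chr6:31834906-31834935, plus strand: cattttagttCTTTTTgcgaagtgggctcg
SNHG11, chr20:38446644-38446673, plus strand: gctctaggctgcagccgcgcccccagccgt
ZFAS1, chr20:49278632-49278661, plus strand: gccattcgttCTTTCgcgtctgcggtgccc
SNHG5, chr6:85678714-85678743, minus strand: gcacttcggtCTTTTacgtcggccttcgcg
SNHG19, chr16:2155339-2155368, minus strand: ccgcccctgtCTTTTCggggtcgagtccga
SNHG7, chr9:136728165-136728194, minus strand: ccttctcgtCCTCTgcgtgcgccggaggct
DANCR, chr4:52712384-52712413, plus strand: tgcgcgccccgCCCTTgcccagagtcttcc
SNHG17, chr20:38435309-38435338, minus strand: gtgtggcctcagtCCTTCgccgtccctcgc

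**Figure D4:**
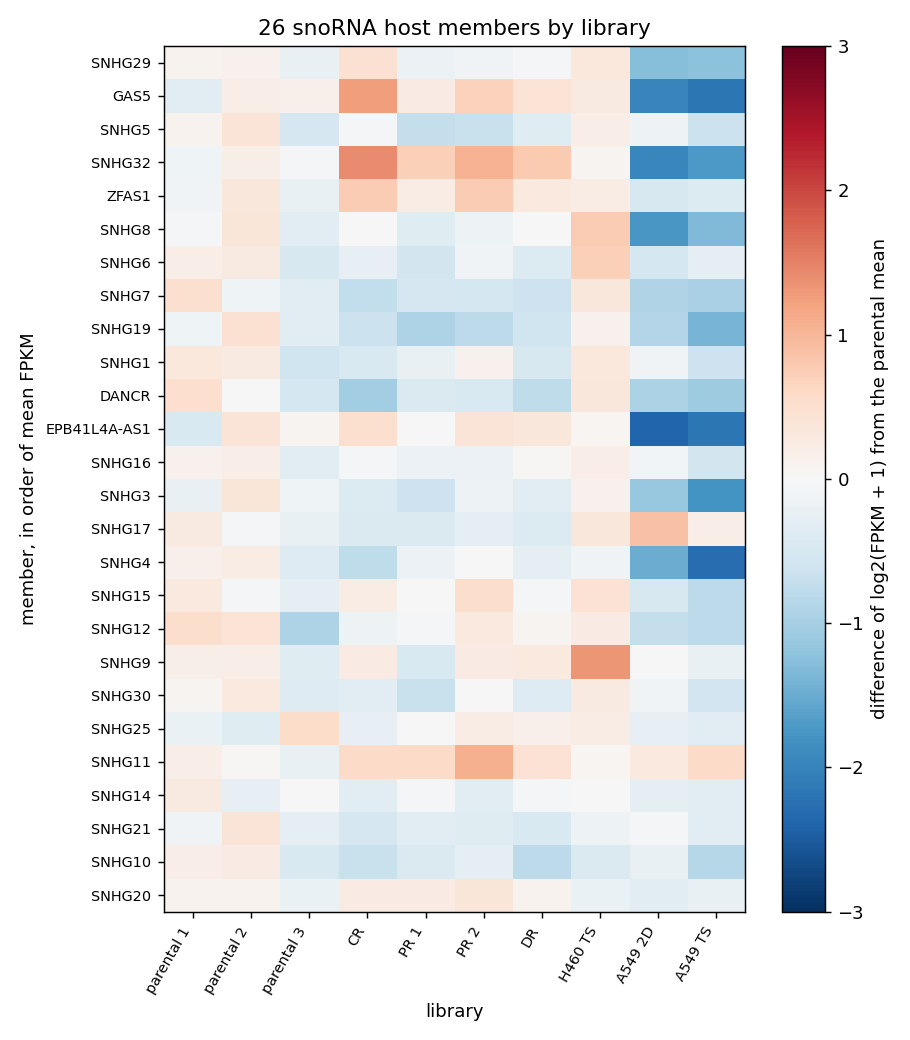
Difference of log2(FPKM + 1) from the mean of the 3 parental libraries for the 26 snoRNA hosts (rows, in order of mean FPKM) in each of the 10 libraries (columns), red for higher and blue for lower. SNHG32 is red and SNHG19 blue in the 4 drug-resistant columns, and most hosts are blue in both A549 columns.

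For paclitaxel alone, the 2 PR libraries were compared with the same parental libraries. Of 199 members tested 24 were higher and 12 lower, which is 18.1% against 28.1% of all genes (17.5% higher and 10.6% lower). The number of calls was 19 without parental replicate 2, and the share of all genes in that fit is not given. A fit without 1 PR library keeps 1 library in that group. Calls lost there do not show that a change rested on the library left out. The 4 p53 or DNA damage RNAs called in the drug comparison were also among the higher members. Both comparisons share the PR and parental libraries, so this is not a repeat. PURPL, LINC-PINT and SIRLNT were not among the 200 highest lncRNAs by the parental mean, so their rises are partly set by the ranking. SIRLNT, named for regulating SIRT1, was at 6.5 and 6.95 FPKM in PR, 2.12 in CR, 2.37 in DR and 0.936 to 1.9 in the parental libraries (log2 fold change 1.89, SE 0.393, adjusted p = 0.0083 for PR). MIR22HG, host of a miRNA, was at 22 and 30.9 in PR and at 6.04, 5.67 and 13.4 in the parental libraries (log2 fold change 1.34, adjusted p = 0.0392, lost in 4 of the 5 fits without 1 library). SNHG5 and SNHG19 were the snoRNA hosts lower in PR, by 0.96 and 1.14 on the log2 scale, and no host was higher, whereas 2 were higher and 1 lower when scaled by the upper quartile.

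Single libraries allow no test. On log2(FPKM + 1) against the parental mean, 26 members in CR exceeded the parental mean more than 2-fold and 7 fell as far short of it, where 5.49% and 6.64% of all expressed genes were that far apart. DR had 16 and 4 (5.4% and 5.35% of all), and the PR mean had 26 and 5 (7.43% and 5.54%). These libraries were among those averaged by the rule, so the counts of higher members are partly set by the ranking. Expressed genes needed only an FPKM of 1 in 2 libraries, and the added 1 shrinks differences at low levels. The shares are thus not of genes at like levels, here and in later counts on this scale. With parental replicate 1 alone as the control the numbers for CR were 45 and 7, and for DR 35 and 6. Shares of all genes were not computed against that control, so these numbers cannot be told from a shift of all genes. SLC9A3-AS1 was at 151 FPKM in CR against 15.9 to 62.7 in the parental and 50 to 64.7 in the other drug-resistant libraries. SLC9A3, on the opposite strand, followed SLC9A3-AS1 over the 10 libraries (r = 0.99). The libraries did not mark strand, so reads of such a pair cannot be told apart where the genes overlap.

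Antisense and divergent members were compared with their partner genes. Over 56 members with a partner by name, the correlation of log2(FPKM + 1) over the 10 libraries, which share cell lines and drugs, had a median r of 0.28. It was above 0.5 for 23 pairs and below -0.5 for 6. VPS9D1-AS1 went opposite to VPS9D1 (r = -0.93), with log2 fold changes of -1.23 (adjusted p = 0.0289, 0.146 without parental replicate 1) and 1.46 (adjusted p = 0.00849) in drug-resistant cells. UBA6-AS1 rose by 0.66 on the log2 scale while UBA6 fell by 0.76 (adjusted p 0.0214 and 0.0212). ZNF232-AS1 and ZNF232 both fell, by 1.32 and 0.72. The calls of UBA6-AS1 and ZNF232-AS1 each held in 3 of the 7 fits without 1 library, and ZNF232-AS1 had an adjusted p of 0.173 without parental replicate 2. TP53TG1 starts head-to-head with CROT, a carnitine acyltransferase of peroxisomes, and both rose, with r = 0.9 and a log2 fold change of 0.93 for CROT (adjusted p = 0.00964).

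The readthrough members join exons of neighbouring genes, so their reads are shared with these genes and their values are uncertain. Of 9, 5 were higher and 1 was lower in drug-resistant cells, where 18.5% and 15.3% of all genes were. Of the 6 among the 200 highest by the parental mean, 3 were higher and 1 lower. PPT2-EGFL8 rose by 1.07 on the log2 scale and its first parent PPT2 by 1.14. SLMO2-ATP5E fell by 0.75, a call that held in 3 of the 7 fits without 1 library, and PRELID3B, the present name of SLMO2, by 1.03. SLX1A-SULT1A3 and SLX1B-SULT1A4 rose by 0.71 and 1.15, while SULT1A3 and SULT1A4, which are near-identical copies, fell by 1 and 1.02. BLOC1S5-TXNDC5 showed how unsteady such a level can be: it was at 13.8 and 32.9 FPKM in parental replicates 1 and 2 but 0.00371 in replicate 3, and at 13 in one PR library but 0.0581 in the other.

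Few members passed the test of sphere culture. TS and 2D libraries of H460 and A549 were compared in 1 fit with the line as a covariate, which had 2 TS and 4 2D libraries. Of 200 members 1 passed, H19, where 0.191% of all genes did, and 12 had an unadjusted p under 0.05 (7.42% of all genes did). DESeq2 called 4 members, H19, EWSAT1 and SIRLNT as higher and MIR1915HG as lower, and limma on log2(FPKM + 1) none. The share of all genes that DESeq2 called is not given, and the 0.191% is that of edgeR. None of the 4 called by DESeq2 was a member when lncRNAs were ranked by the parental mean, so their calls are partly set by the ranking.

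H19 is the maternally expressed RNA of an imprinted locus and host of a miRNA (chr11:1995176-2001266, minus strand). It was at 5.34 FPKM in A549 2D and 279 in A549 TS, which is 940 and 52796 reads and a 52.1-fold difference in FPKM between the libraries. In H460 it had 0 reads in the 3 parental, the CR and 1 PR library, 1 in the other PR library, 3 in DR and 6 in TS. So the difference was one of 2 A549 libraries without replicates. The call (adjusted p = 0.00518) was lost without A549 TS (adjusted p = 0.109), without A549 2D (0.104) and with limma (0.765).

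In H460, 47 members lay above and 39 below the parental range in the TS library, where 19.2% of all expressed genes lay above and 20.9% below, and 7 were more than 2-fold above and 5 below the parental mean (1.48% and 1.82% of all expressed genes). EWSAT1 and SIRLNT were no longer members when lncRNAs were ranked by the parental mean. Both are members in part through H460 TS, where they are high, so their TS differences are partly set by the ranking. EWSAT1, first described in Ewing sarcoma, was at 17.5 FPKM in H460 TS and 0.886 to 2.57 in the parental libraries. It was at 0.0105 and 0.0591 in A549, and its adjusted p over both lines was 0.0981 with edgeR and 0.00049 with DESeq2. Without A549 2D or A549 TS edgeR called it too (0.0187 and 0.015). SIRLNT was at 11.7 in H460 TS against 0.936 to 1.9 in the parental libraries, and at 1.17 and 1.78 in A549 2D and TS (adjusted p = 0.271 with edgeR and 0.0495 with DESeq2, and with edgeR 0.0273 and 0.0244 without A549 2D or A549 TS). LUCAT1, induced by stress through NRF2, was at 30.8 in H460 TS and at 7.44 to 13.1 in the parental libraries. It was at 6.41 and 8.05 in A549 (adjusted p = 0.5). The p53 or DNA damage RNAs had none that passed and a median log2 fold change of -0.02.

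In A549 TS, 9 members were more than 2-fold above and 5 more than 2-fold below A549 2D (4.73% and 2.49% of all). On log2(FPKM + 1), CRIM1-DT was the one member beyond 2-fold in both lines, and it was lower in both. CRIM1-DT was no longer a member when lncRNAs were ranked by the parental mean. It is a member in part through A549 2D, where it is high, so its difference in A549 is partly set by the ranking. It was at 1.23, 3.61 and 3.2 in the parental libraries and 0.571 in H460 TS, and at 7.66 in A549 2D and 2.61 in A549 TS (log2 fold change -1.89, adjusted p = 0.41). As plain FPKM ratios of TS over 2D, which give low values more weight, CRIM1-DT and NCKAP5-AS2 were over 2-fold lower and EWSAT1 over 2-fold higher in both lines. LOC107984316 (0.414 and 2.51) and LOC102724814 (0.485 and 2.37) were then lower in H460 TS and higher in A549 TS, a difference between lines that was not tested.

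More members passed between the cell lines. In the same fit 55 members were lower and 8 higher in A549 than in H460, which is 31.5% of members against 23.9% of all genes (9.42% lower and 14.4% higher). Since 8 of the 10 libraries averaged by the rule were of H460, RNAs high in H460 were favoured. With both lines weighted equally 44 were lower and 17 higher, and ranked by A549 alone 18 were lower and 40 higher. A549 had 2 libraries, 1 of them TS, so line and library cannot be fully told apart.

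In 2D alone, the level of 11 members was over 2-fold higher in A549 than in parental H460 and that of 54 was over 2-fold lower, where 10.2% and 7.52% of all genes were. Both A549 libraries had no read of 8 members: LINC00824, PLAC4, LOC107986820, DPP10-AS1, LINC01508, FENDRR, LOC105379171 and LINC02539. Against a floor of 3 reads in the smaller A549 library, LINC00824 was at least 11362-fold lower than in parental H460, where it was the sixth member by mean, at 209, 217 and 185 FPKM. PLAC4 was at least 2093-fold, DPP10-AS1 at least 492-fold and FENDRR at least 403-fold lower. These bounds cover counting error only.

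The snoRNA hosts were lower in A549 or did not pass. Of 26 members 10 were lower, where 9.42% of all genes were, none was higher, and the median log2 fold change was -0.7 against 0 for all genes. Without H460 TS or without A549 TS 6 were lower, with SNHG3, DANCR, SNHG7 and SNHG19 lost in both fits, and over the fits without 1 library the count was between 6 and 12. GAS5 was at 104 and 89.9 FPKM in A549 against 323 to 497 in parental and TS H460 (log2 fold change -2.18, SE 0.296, adjusted p = 0.00324). SNHG32 was at 30.3 and 36 against 110 to 138 (log2 fold change -2, SE 0.228, adjusted p = 0.0017). EPB41L4A-AS1 was at 6.87 and 8.16 against 28.9 to 52.9, and SNHG29 at 226 and 234 against 474 to 687 (adjusted p 0.00289 and 0.00696). SNHG17 was instead at 54.5 and 33.6 in A549 against 25.1 to 37 (adjusted p = 0.326).

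Besides H19, the members higher in A549 included ZBED5-AS1, at 10.9 and 7.67 FPKM against 1.12 to 1.99, PPP1R14B-AS1, at 7.47 and 10.7 against 1.57 to 2.34, and GACAT2, at 7.44 and 11.9 against 1.17 to 2.57. Their adjusted p were 0.00504, 0.00917 and 0.0183. H19 and these members were no longer in the list when lncRNAs were ranked by the parental mean. They are members through libraries in which they are high, those of A549 among them, so their differences are partly set by the ranking. ZBED5-AS1 and GACAT2 lost the call without A549 2D (adjusted p 0.0886 and 0.0714).

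**Figure D5:**
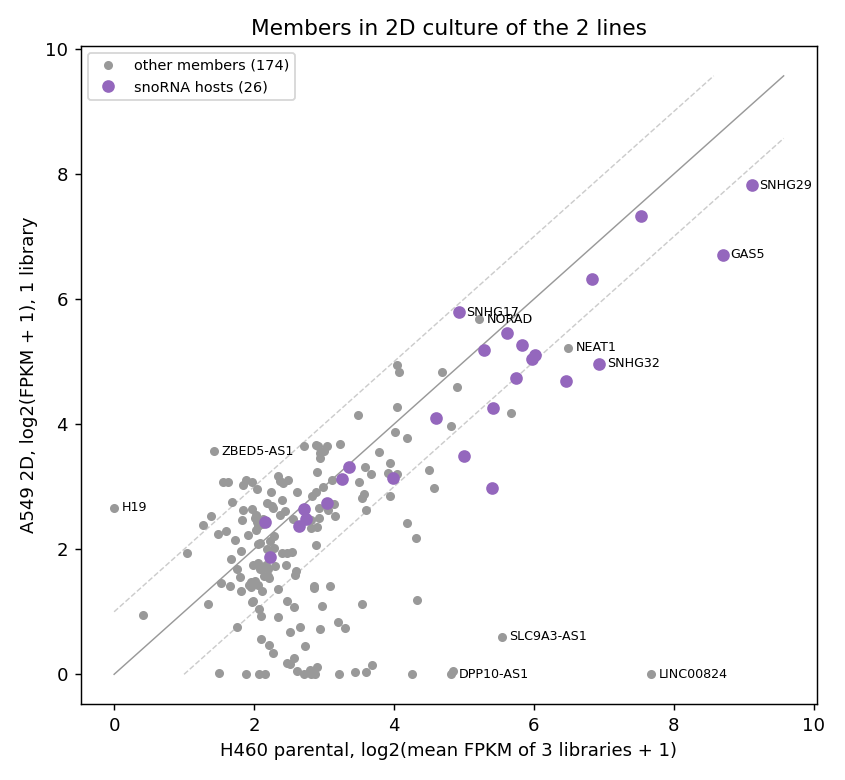
Each point is 1 of the 200 members, with log2(FPKM + 1) of the parental H460 mean on the x axis and of the A549 2D library on the y axis. The solid line marks equal levels and the dashed lines a 2-fold difference, and the 26 snoRNA hosts (purple) lie mostly below the solid line, while LINC00824 lies at 0 in A549.

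Compared with other lncRNAs, the members' promoter windows were richer in GC and CpG, and head-to-head starts were more common. The ranking used no sequence, but in libraries without strand marking reads of an overlapping partner may count toward a member's FPKM. Of 200 members 159 had an entry, with 185 starts. The median GC content of their windows was 63.3% and the median number of CpG was 23, against 49.3% and 4 for 9833 starts of other lncRNAs and 58.7% and 14 for all 35116 starts. A protein-coding start on the opposite strand, at most 1000 bases upstream or overlapping by at most 500 bases, was found for 59 of the 159 (37.1%), and for 15.5% of 8548 other lncRNAs. The TATA box core TATAAA was found on either strand in 10.3% of the members' windows and 11.5% of all windows, and CCAAT in 35.1% and 34.6%. These are descriptions of annotated starts, with no test.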

How the data were processed

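Poly(A) RNA was sequenced in 10 libraries without strand marking. Read counts, FPKM and TPM for 46427 genes were deposited by the authors in 1 table. The submitters' processing notes name bcl2fastq 1.8.4, Trimmomatic, HISAT2 2.1.0 and StringTie 2.1.3b, and GRCh38. The deposited counts are whole numbers per gene and were not normalized. The deposited FPKM and TPM were made by the authors per transcript length and library size, and an FPKM can weigh isoforms that a count does not.

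Members were ranked by mean FPKM. Members, lists and tests were chosen with earlier results of these data known. Counts were tested with the quasi-likelihood test of edgeR 4.0.16 in R 4.3.3 (TMM scaling, filterByExpr, Benjamini-Hochberg adjustment over all genes tested, threshold 0.05). The 3 parental libraries were set against all 4 drug-resistant libraries and against the 2 PR libraries, and TS was set against 2D over both lines with the line as a term. SE was the log2 fold change over the square root of F. Each script of tests was first tested on simulated counts with 200 changed genes. Single libraries were compared on log2(FPKM + 1), and expressed genes were those reaching an FPKM of 1 in 2 or more libraries.

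Alternatives were DESeq2 1.42.0, limma 3.58.1 on log2(FPKM + 1), other scaling, filters, rankings and pseudocounts, the form of the library names as a term, a replicate block, and each library left out. Rankings by A549, with both lines or with parental and drug-resistant means weighted equally, and fits without CR, DR, H460 TS, A549 TS or A549 2D, list counts by the parental ranking or without 1 library, and FPKM ratios without a pseudocount (members above 0 in the libraries compared) were added after seeing the data.

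Named are the 15 members of highest mean, the 8 of largest log2 fold change in each direction among those that passed (6 for TS and line), members of the role lists, those at the threshold, and the 5 of largest range among those with at least 10 reads in every library. EWSAT1, CRIM1-DT, NCKAP5-AS2, LOC107984316, UBA6-AS1, ERVK3-1, LOC105379171, LINC02539, the steadiest members and the readthrough members were named after their values were seen, as was the run of C and T at transcript starts. Sequences and positions are RefSeq's on GRCh38.p14, and 191 members matched by gene identifier. Python 3.11.15 with pandas 2.3.3, numpy 2.4.6 and matplotlib 3.10.9 served for the other values and the figures.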

Additional observations from a re-analysis of the deposited data

Results flagged for a closer look

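Among the 4 drug-resistant libraries, 1 library stood apart from the other three by Dixon's test at the 95% level for 5 of 72 named members, and chance gives such a gap in about 1 of 20 groups. The CR library was highest for SNHG29, at 756 FPKM, and for SLC9A3-AS1, at 151 FPKM. DR was highest for GACAT2, at 6.1 FPKM. PR replicate 1 was lowest for SNHG9, at 6.32 FPKM, and PR replicate 2 was highest for SNHG17, at 24 FPKM, which was still below the lowest parental value of 25.1.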

How the results depend on the processing

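No log2 fold change of a named member that passed the test changed sign under the alternatives, but splits of counts did turn: the 37 higher and 18 lower members of the drug comparison became 21 and 26 by the parental ranking, the 8 higher and 55 lower of the line comparison 40 and 18 by the A549 ranking, and the 0 higher and 2 lower snoRNA hosts of PR 2 and 1 with upper-quartile scaling. Of the log2 fold changes of named members recomputed under the alternatives, 3160 kept their side of the threshold, 169 lost the call and 99 gained one. Of the 55 drug calls 26 held in all 7 fits without 1 library, of the 36 PR calls 5 in all 5, and of the 63 line calls 41 in all 6. Calls in the drug comparison ranged from 36 to 62 with 1 library left out, in PR from 5 to 44, for TS from 1 to 2 and for the line from 51 to 65. TS calls were 4 with DESeq2 and 0 with limma or when members were ranked by the parental mean, by the median or by equal weights of parental and drug-resistant means. DESeq2 called 97 members between the lines. With parental replicate 1 as the control, 52 members in CR and 41 in DR were more than 2-fold apart, and with parental replicate 3, 24 in H460 TS. A pseudocount of 0.1 gave 31 in DR and 26 in A549 TS. Shares of all genes were not computed for these settings of control and pseudocount, and the causes were not tested. For the fits with DESeq2 or with 1 library left out, the shares of all genes are not given. PR fits without 1 PR library keep 1 library in that group, so calls lost there do not show which library a change rests on. The PR fit with the replicate number as a block, on replicates 1 and 2, gave 55 calls against 44 for the same 4 libraries without it. The numbers were not taken to pair the samples, since the labels give no shared source and the deviations correlated with r = 0.0795 over 19430 genes, which are not replicates. A group of 1 library, as 5 of the 7 were, gives no replicate error of its own.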

Other observations

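SCD, the desaturase that makes monounsaturated fatty acids, lies 8749 bases from OLMALINC on chromosome 10 and was chosen after its values were seen. It was at 119, 147 and 140 FPKM in the parental libraries, 45.1 in CR, 68.2 and 59.7 in PR and 74.8 in DR, with a log2 fold change of -1.24 (edgeR, adjusted p = 0.00196), and at 336 in H460 TS. In H460 both genes were thus lowest in drug-resistant and highest in TS libraries. In A549, SCD was at 162 in 2D and 370 in TS, while OLMALINC was at 6.25 and 3.59.

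Several lncRNAs abundant in A549 fell outside the 200 on the mean over all 10 libraries. LNCAROD was at 13.1 and 10.8 FPKM in A549 2D and TS and at most 0.155 in H460. LINC00707 was at 16.2 in A549 2D, 0.884 in A549 TS and at most 0.127 in H460. LINP1, known from DNA end joining, was at 9.44 and 8.46 in A549 and at most 0.111 in H460.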
